A study of Mus musculus with 7 samples.

Results

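Genes for making purine, pyrimidine and deoxynucleotide building blocks were followed through 7 RNA sequencing libraries of mouse primary B cells. The 33 genes were listed by name from textbook pathways: purine ring synthesis, the steps to AMP and GMP, pyrimidine ring synthesis, ribonucleotide reductase, thymidylate synthesis, and the salvage and removal of nucleotides. Of them, 32 were assembled in all 7 libraries, out of 9316 genes so assembled and 11740 named in at least 1. No assembled transcript took the name of Tk1, cytosolic thymidine kinase, which is not analysed here.

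The B cells came from wild-type C57BL/6 mice, in numbers and by a purification not given in the sources used here, and were cultured with anti-IgM, an antibody that crosslinks the B cell receptor, with BAFF, a survival cytokine of B cells, or with both, for 8 h or 30 h. The unstimulated library was taken at 0 h, and each of the 7 conditions was 1 library. RNA was primed from its poly(A) tail. No unstimulated culture was kept for 8 h or 30 h, so stimulus and time in culture cannot be told apart in a comparison with the unstimulated library.

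Proliferating lymphocytes need nucleotides both for ribosomal RNA and for copying DNA. Purines are built on phosphoribosyl pyrophosphate (PRPP) up to inosine monophosphate (IMP), which is then turned into AMP or GMP. Pyrimidines are built as a free ring that is joined to PRPP to give UMP, from which CTP is made. Ribonucleotide reductase turns ribonucleotides into deoxynucleotides, thymidylate synthase makes the nucleotide found in DNA alone, and salvage enzymes reuse free bases and nucleosides.

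Levels are in FPKM, fragments per kilobase of transcript and per 1000000 mapped fragments. Comparisons took genes that had an assembled transcript in each of the 2 libraries and reached 1 FPKM in at least 1. A gene was counted higher or lower where 1 was added to each FPKM, the log2 values then lay 1 or more apart, and the deposited intervals, which cover counting error only, were separate. A counted difference was checked against the reads that all assembled pieces placed over its annotated exons. These reads are given as RPKM, reads per kilobase of exon and per 1000000 mapped. A difference was called held where log2 of RPKM plus 1 moved by 1 or more in that direction. This second measure was calculated back from the same FPKM values and is not independent of them. With 1 library a condition, no p-value was possible, and fewer cells of a type and less RNA per cell cannot be told apart.

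Mapped fragments recovered from the files lay between 18.75 M and 28.61 M a library (M for 1000000), and the members rested on 77 to 12395 fragments each in the unstimulated library. B cell markers were assembled in every library (9 or 10 of 10), with a summed FPKM of 1110.3 to 3400.9 after culture, lowest with anti-IgM at 8 h, against 2385.4 unstimulated. These sums do not cover the same genes: Cd79a entered with both at 8 h (304.3 FPKM) and with BAFF at 30 h (733.8 FPKM) alone. Of 13 macrophage markers, 6 to 10 were assembled after culture, with a summed FPKM of 46.4 to 148.7, against 11 and 275.5 unstimulated. Of 8 erythroid markers, 0 to 2 were assembled after culture with a sum of 0 to 48.1 FPKM, against 2 and 221.3 FPKM unstimulated. T cell markers summed to 18.5 to 118.0 FPKM after culture, against 36.6 FPKM unstimulated, with Cd3d, Cd3e, Trac, Cd247 and Thy1 not assembled in any of the 7 libraries. Lck, which some B cells also express, gave 93.8 of the 118.0 FPKM, with anti-IgM at 30 h, and Cd5l, known from macrophages, 22.6 FPKM, while unstimulated Lck gave 16.5 FPKM and Cd5l 12.3 FPKM. NK cell markers stayed at or under 3.44 FPKM in sum, and no neutrophil or stromal marker was assembled. A gene without an assembled transcript is not shown to be absent, since Cd79a, a defining B cell gene, was not assembled in 5 of the 7 libraries. The part of these other cells in the differences with the unstimulated library was not tested.

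Most genes of ribonucleotide synthesis had higher levels after 8 h of anti-IgM, and Rrm1, Rrm2 and Dut of deoxynucleotide synthesis had theirs at 30 h. After 8 h of anti-IgM, 15 of 32 members were higher and 4 lower than in the unstimulated library, while 10.7% of all 9913 genes compared were higher and 10.4% lower. The median member differed by 0.83 on the log2 scale and the median of all genes by 0.04. Of the 15 higher members 14 were held, Tyms being the exception, and all 4 lower ones, Rrm2, Tk2, Dck and Samhd1, were held.

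With both stimuli at 8 h, 15 of 32 members were higher and 3 lower than in the unstimulated library, with 12.3% and 8.91% of all genes higher and lower, and a member median of 0.76 against 0.11 over all genes. Held among them were 14 of the higher members, all but Dtymk, and the 3 lower ones, Tk2, Dck and Samhd1. BAFF alone at 8 h gave 1 member higher, Tyms, which was not held, and 0 lower, with 5.59% of all genes higher and 4.2% lower. The median member differed by 0.40 with BAFF at 8 h and the median of all genes by 0.12. Of 32 members, 24 lay above their unstimulated value, a share that was not counted over all genes.

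At 30 h, 16 members were higher and 1 lower with anti-IgM than unstimulated, with 8.41% of all genes higher and 7.35% lower. All 17 were held. Both stimuli at 30 h gave 17 higher and 2 lower members, with 8.28% and 7.79% of all genes, and all were held but Dtymk. BAFF alone at 30 h gave 4 higher members, Rrm1, Rrm2, Tyms and Dut, all held, and 0 lower, with 5.1% and 4.01% of all genes. In each of these comparisons the held label of Tyms rests on an uncertain unstimulated count of reads, as given below. Median differences of the members over the unstimulated library at 30 h were 0.91 with anti-IgM, 0.54 with BAFF and 1.04 with both, and those of all genes 0.06, 0.07 and 0.02. The 6 comparisons share the unstimulated library.

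Rescaling each library by the median ratio of its genes moved the log2 differences from the unstimulated library by -0.17 to -0.04. Of all genes counted at 8 h, 40.0% were then higher with anti-IgM, 44.5% with BAFF and 43.7% with both, in place of 50.7%, 57.1% and 57.9% without rescaling. Members counted higher and lower at 8 h were 14 and 4 with anti-IgM, 1 and 0 with BAFF, and 13 and 3 with both after rescaling.

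**Figure D1:**
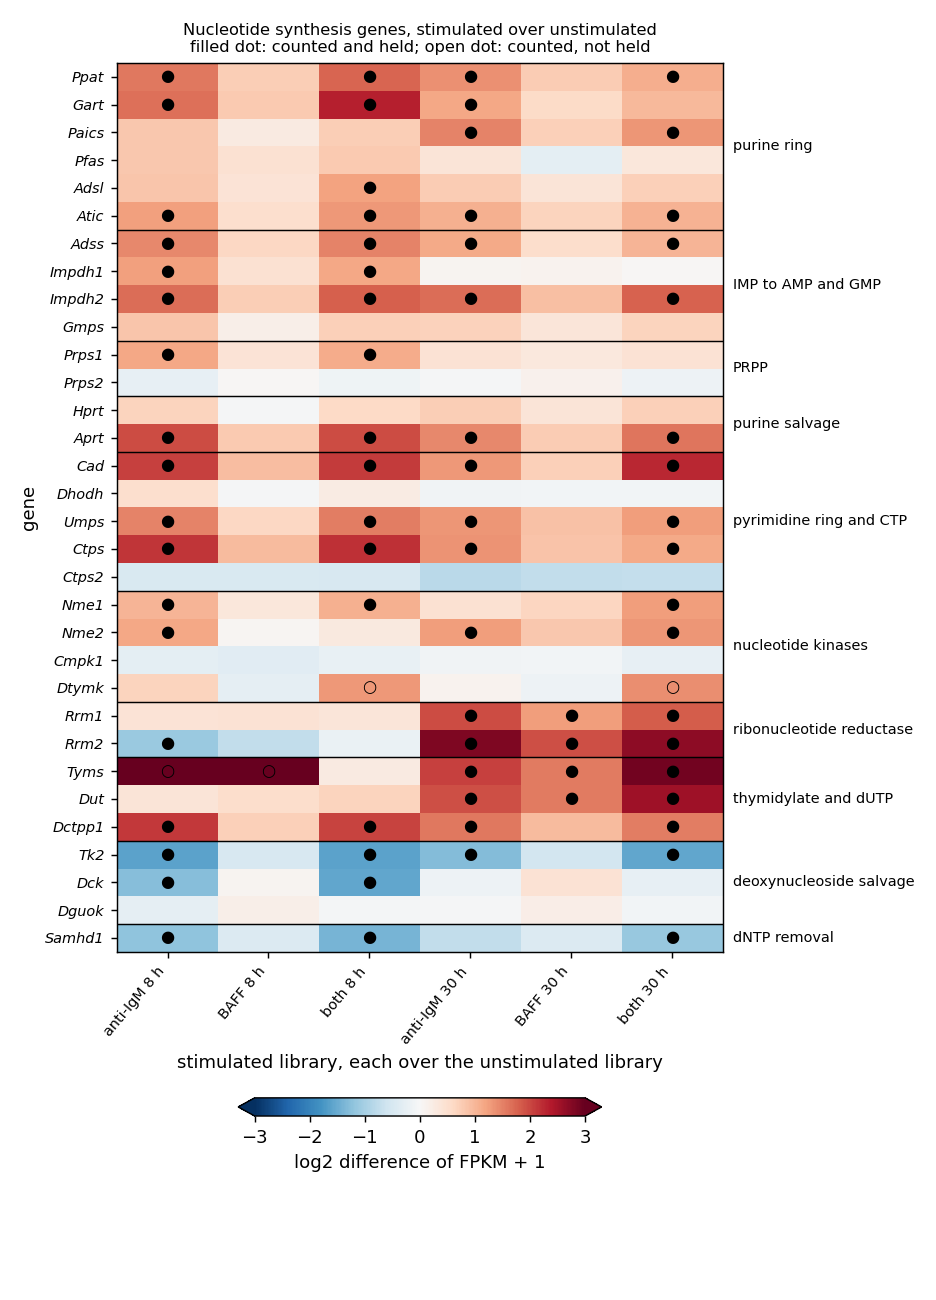
Log2 difference of FPKM plus 1 between each stimulated library and the unstimulated library (columns) for the 32 genes assembled (rows, grouped by role), with dots on differences counted (filled where reads over exons held them). Most ribonucleotide genes are red under anti-IgM and both at 8 h, with Prps2, Ctps2 and Cmpk1 pale blue. Rrm1, Rrm2 and Dut turn dark red at 30 h, Tk2 and Samhd1 are blue, and Dck is blue with anti-IgM and with both at 8 h; colours end at 3, past which lie the values of Tyms for anti-IgM (3.88) and BAFF (5.06) at 8 h.

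Purine ring synthesis opens with Ppat, the amidotransferase that commits PRPP to purines. Ppat had 25.4, 13.6 and 28.4 FPKM with anti-IgM, with BAFF and with both at 8 h, and 21.7, 13.8 and 17.8 FPKM at 30 h, against 7.78 FPKM unstimulated. Its interval was 24.4 to 26.3 FPKM with anti-IgM at 8 h, against 7.16 to 8.40 FPKM unstimulated. All 6 stimulated libraries were above the unstimulated one, those with anti-IgM by at least 2.29-fold and those with BAFF alone by 1.75-fold and 1.77-fold.

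Gart, which carries several activities of the pathway on a single protein, had 67.8, 36.8 and 109.3 FPKM with anti-IgM, with BAFF and with both at 8 h, and 47.9, 31.6 and 42.2 FPKM at 30 h, against 21.01 FPKM unstimulated. The 109.3 FPKM with both stimuli came from 2 separate pieces of the gene whose FPKM add up. Reads over exons put both stimuli at 38.9 RPKM at 8 h, below anti-IgM alone at 47.9 RPKM, and the unstimulated library at 11.3 RPKM.

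Paics joins a later pair of steps, and the gene sits head to head with Ppat: their annotated starts lie 271 bases apart on opposite strands of chromosome 5, and the first exons overlap. Whether the libraries kept the strand of the RNA is not given in the sources used here, so reads of that stretch may belong to either gene. Paics had 92.4, 62.7 and 87.9 FPKM with anti-IgM, with BAFF and with both at 8 h, and 147.5, 85.3 and 131.4 FPKM at 30 h, against 51.9 FPKM unstimulated. Unlike Ppat, Paics was counted higher only at 30 h, with anti-IgM (2.84-fold) and with both (2.53-fold), and at 8 h its ratios to the unstimulated library were 1.78, 1.21 and 1.69. From 8 h to 30 h of anti-IgM the log2 difference was 0.67 for Paics and -0.22 for Ppat.

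Atic, which closes the purine ring, had 61.8, 37.2 and 65.3 FPKM with anti-IgM, with BAFF and with both at 8 h, and 55.2, 41.5 and 54.8 FPKM at 30 h, against 25.9 FPKM unstimulated, and was counted higher in the 4 libraries with anti-IgM. Adsl, adenylosuccinate lyase, which acts in ring synthesis and again on the way to AMP, had 41.9, 30.9 and 54.8 FPKM at 8 h and 39.97, 30.5 and 38.8 FPKM at 30 h with the same stimuli in the same order, against 23.1 FPKM unstimulated. By FPKM it was counted with both stimuli at 8 h alone. Reads over exons counted Adsl with anti-IgM at 8 h as well. They gave 38.3 RPKM with anti-IgM and 38.1 RPKM with both at 8 h, against 14.7 RPKM unstimulated.

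Pfas, the amidotransferase of the fourth step, showed the most difference between the measures among purine ring genes. In FPKM it had 24.0, 18.4 and 23.2 with anti-IgM, with BAFF and with both at 8 h, and 17.4, 10.6 and 16.8 at 30 h, against 13.2 FPKM unstimulated, and was counted nowhere. It was assembled as 2 separate pieces in the BAFF library at 8 h and in the unstimulated one, and as 1 piece in the other libraries. Reads over exons gave 23.0, 10.7 and 22.5 RPKM at 8 h and 16.8, 10.1 and 16.3 RPKM at 30 h in the same order, against 5.56 RPKM unstimulated, a ratio of 4.15 for anti-IgM at 8 h.

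From IMP, Impdh2 had the highest FPKM of the 4 genes measured on the branches to GMP and AMP. Impdh2, the isoform of IMP dehydrogenase known from proliferating cells, had 166.8, 85.9 and 181.0 FPKM with anti-IgM, with BAFF and with both at 8 h, and 167.0, 96.4 and 177.5 FPKM at 30 h, against 51.5 FPKM unstimulated. It was counted higher in the 4 libraries with anti-IgM, by 3.24-fold and 3.25-fold with anti-IgM alone at 8 h and 30 h, and its level at 30 h was close to that at 8 h under each stimulus.

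Impdh1, the isoform known for housekeeping expression, had 26.97, 15.4 and 25.6 FPKM with anti-IgM, with BAFF and with both at 8 h, and 11.7, 11.8 and 11.2 FPKM at 30 h, against 10.9 FPKM unstimulated. The unstimulated interval was wide, 4.05 to 17.7 FPKM. Impdh1 was thus counted higher at 8 h with anti-IgM and with both, and lay within 1.09-fold of the unstimulated FPKM in every library at 30 h. Between 30 h and 8 h it was counted lower with anti-IgM (log2 difference -1.14) and with both (-1.12), where Impdh2 differed by 0.00 and -0.03. The longest run of identical bases between coding transcripts of both genes was 29, against reads of 101 bases.

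Gmps, GMP synthetase, had 41.0, 25.7 and 37.6 FPKM with anti-IgM, with BAFF and with both at 8 h, and 36.9, 29.3 and 36.3 FPKM at 30 h, against 22.6 FPKM unstimulated, and passed 2-fold in no library. On the branch to AMP, Adss, adenylosuccinate synthase, had 66.5, 37.0 and 67.7 FPKM at 8 h and 53.1, 34.4 and 49.4 FPKM at 30 h in the same order, against 23.7 FPKM unstimulated. Adss was counted higher in each library with anti-IgM, though with both at 30 h its log2 difference of 1.03 lay just past the limit.

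PRPP itself is made by the Prps enzymes, and only the first was counted. Prps1 had 38.4, 22.1 and 37.1 FPKM with anti-IgM, with BAFF and with both at 8 h, and 22.7, 20.9 and 22.7 FPKM at 30 h, against 16.5 FPKM unstimulated, a time course much like that of Impdh1. Prps2 stayed between 25.7 and 33.9 FPKM over all 7 libraries.

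Purine salvage had 1 counted member of 2. Aprt, which recovers adenine, had 135.8, 59.5 and 135.7 FPKM with anti-IgM, with BAFF and with both at 8 h, and 94.3, 59.3 and 105.8 FPKM at 30 h, against 34.3 FPKM unstimulated. Its ratio of 3.95 with anti-IgM at 8 h was above that of Ppat (3.26) and of Impdh2 (3.24). Hprt, which recovers hypoxanthine and guanine, had 102.5, 62.1 and 96.9 FPKM at 8 h and 107.5, 84.1 and 105.7 FPKM at 30 h in the same order, against 63.7 FPKM unstimulated, and was counted nowhere.

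**Figure D2:**
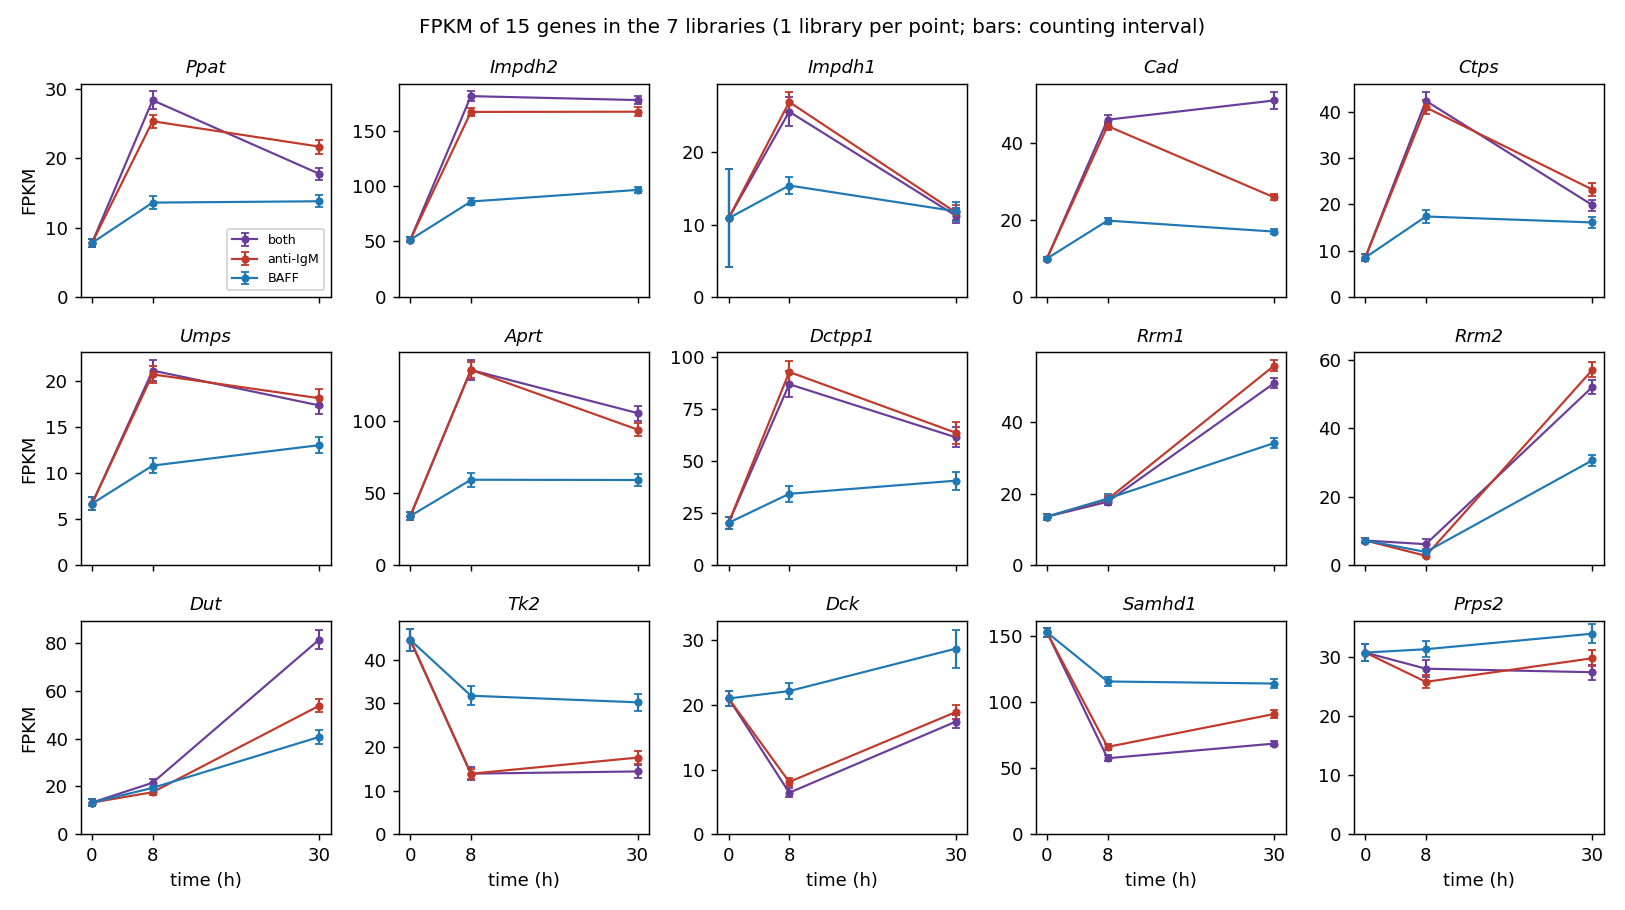
FPKM (y axes, each from 0) of 15 members at 0 h, 8 h and 30 h (x axes), with 1 library per point, lines joining the libraries of each stimulus and bars for the deposited counting interval. Cad, Ctps, Aprt and Dctpp1 peak or level off at 8 h with anti-IgM, Impdh1 is back near its unstimulated 10.9 FPKM at 30 h, Rrm1, Rrm2 and Dut climb between 8 h and 30 h, and Prps2 stays between 25.7 and 33.9 FPKM.

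In pyrimidine synthesis the first and the last enzyme had the largest differences over the unstimulated library at 8 h with anti-IgM and with both. Cad, the multifunctional protein of the opening steps, had 44.5, 19.8 and 46.1 FPKM with anti-IgM, BAFF and both at 8 h, against 9.95 FPKM unstimulated. At 30 h Cad had 25.9, 17.0 and 51.1 FPKM in the same order. The 51.1 FPKM with both stimuli came from 2 abutting pieces of the gene, and reads over exons gave 23.6 RPKM with both, against 25.1 RPKM with anti-IgM alone and 9.62 RPKM unstimulated. By that measure Cad was highest at 8 h, at 43.2 RPKM with anti-IgM and 44.7 RPKM with both.

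Ctps, the CTP synthase known to be needed for lymphocyte proliferation, had 41.0, 17.4 and 42.5 FPKM with anti-IgM, with BAFF and with both at 8 h, and 23.2, 16.1 and 19.8 FPKM at 30 h, against 8.48 FPKM unstimulated. The ratio to the unstimulated library was 4.84 with anti-IgM and 5.004 with both at 8 h, and 2.05 with BAFF, whose log2 difference of 0.96 fell short of the limit. Its paralogue Ctps2 had lower FPKM after culture: 24.9, 24.7 and 24.4 FPKM at 8 h and 19.2, 20.1 and 20.3 FPKM at 30 h in the same order, against 34.3 FPKM unstimulated, with a difference counted nowhere. Ctps2 was assembled in 1 to 3 separate pieces, and reads over exons gave 14.95 RPKM with BAFF at 8 h, against 12.1 RPKM unstimulated, the opposite direction. Identical runs between the transcripts of the pair were at most 20 bases long.

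Umps, which joins the ring to PRPP and releases UMP, had 20.8, 10.9 and 21.2 FPKM with anti-IgM, with BAFF and with both at 8 h, and 18.2, 13.1 and 17.4 FPKM at 30 h, against 6.71 FPKM unstimulated. It was counted in the 4 libraries with anti-IgM, with log2 differences of 1.25 to 1.52, and lay at 0.62 and 0.87 with BAFF at 8 h and 30 h. Dhodh, the mitochondrial dehydrogenase of the pathway, stayed between 9.11 and 14.5 FPKM and was counted in no comparison.

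The kinases that phosphorylate nucleotides split by gene. Nme1 and Nme2, nucleoside diphosphate kinases, lie 719 bases apart on the same strand of chromosome 11, and the annotation has a transcript that runs through both, so that how reads are shared between them is uncertain. Nme2 had the highest FPKM of any member in each of the 7 libraries: 488.9, 225.1 and 266.9 FPKM with anti-IgM, with BAFF and with both at 8 h, and 516.9, 379.0 and 542.7 FPKM at 30 h, against 217.7 FPKM unstimulated. It was counted with anti-IgM at both times and with both stimuli at 30 h alone. The FPKM of Nme2 with both at 8 h is uncertain, as given below.

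Nme1 had 108.6, 67.7 and 112.0 FPKM with anti-IgM, with BAFF and with both at 8 h, and 73.1, 83.7 and 128.4 FPKM at 30 h, against 53.1 FPKM unstimulated. Reads over exons put Nme1 highest with anti-IgM at 8 h (56.2 RPKM, against 19.6 RPKM unstimulated). At 30 h they gave 43.1, 31.8 and 46.5 RPKM with anti-IgM, BAFF and both, another order than the FPKM. They also counted Nme1 higher with anti-IgM at 30 h, which FPKM did not. Dtymk, which phosphorylates thymidylate, had 30.4, 15.3 and 47.3 FPKM at 8 h and 20.3, 16.7 and 50.5 FPKM at 30 h in the same order, against 18.7 FPKM unstimulated. Neither of its counted differences over the unstimulated library, with the 2 stimuli together at 8 h and at 30 h, was held: its reads over exons stayed between 8.84 and 15.9 RPKM. Cmpk1, the UMP and CMP kinase, stayed between 46.4 and 59.1 FPKM.

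Both subunits of ribonucleotide reductase were higher at 30 h under every stimulus. Rrm1, the large subunit, had 18.5, 18.7 and 17.8 FPKM with anti-IgM, with BAFF and with both at 8 h, and 55.9, 34.2 and 51.0 FPKM at 30 h, against 13.7 FPKM unstimulated. At 30 h its interval was 32.97 to 35.5 FPKM even with BAFF alone, against 12.8 to 14.5 FPKM unstimulated. All 3 libraries at 30 h were above all 3 at 8 h, and the libraries at 8 h lay within 1.37-fold of the unstimulated one. The 18.7 FPKM with BAFF at 8 h came from 2 separate pieces. Reads over exons gave 11.8 RPKM there, against 10.7 RPKM unstimulated.

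Rrm2, the small subunit that limits the enzyme in S phase, had 2.82, 3.95 and 6.21 FPKM with anti-IgM, with BAFF and with both at 8 h, and 57.1, 30.7 and 52.1 FPKM at 30 h, against 7.29 FPKM unstimulated. With anti-IgM at 8 h it was counted lower than unstimulated (log2 difference -1.12) and at 30 h higher (2.81). The 6.21 FPKM with both stimuli came from 2 separate pieces, and reads over exons gave 1.99 RPKM there, against 6.26 RPKM unstimulated, also lower. Between 30 h and 8 h the FPKM ratio was 20.3 with anti-IgM, 7.78 with BAFF and 8.39 with both, the last being 23.2 by reads over exons.

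Dut, which removes dUTP and yields the precursor of thymidylate, had 17.6, 19.4 and 21.5 FPKM with anti-IgM, with BAFF and with both at 8 h, and 53.7, 40.7 and 81.3 FPKM at 30 h, against 13.2 FPKM unstimulated. It was counted higher at 30 h under every stimulus, over the unstimulated library and over the same stimulus at 8 h, and each was held. The value for both stimuli at 30 h was the sum of 2 separate pieces, and reads over exons put it at 42.1 RPKM, near the 43.4 RPKM of anti-IgM alone.

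Dctpp1, a pyrophosphatase that clears dCTP and modified forms of it, kept the early pattern instead. It had 93.0, 34.4 and 87.1 FPKM with anti-IgM, with BAFF and with both at 8 h, and 63.8, 40.8 and 61.6 FPKM at 30 h, against 20.5 FPKM unstimulated. With BAFF its log2 difference was 0.72 at 8 h and 0.96 at 30 h, just short of the limit at 30 h.

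Tyms, thymidylate synthase (chr5:30058202-30073617, minus strand, mm10), needs its transcripts told apart, because its summed FPKM was set by how its last exon was assembled. The sum was 78.5, 179.1 and 5.49 FPKM with anti-IgM, with BAFF and with both at 8 h, and 21.5, 15.1 and 39.4 FPKM at 30 h, against 4.42 FPKM unstimulated. At 8 h, 73.9 FPKM with anti-IgM and 174.9 FPKM with BAFF came from a single-exon piece of 445 and 360 bases inside the last exon, which holds the 3′ untranslated region. The same piece was assembled with 289 bases and 193.5 FPKM with both stimuli at 8 h and with 233 bases and 598.3 FPKM in the unstimulated library, and stayed out of the sum there because pieces under 300 bases were not used.

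The FPKM of these pieces did not follow their estimated reads: the fragments were put at 488, 477 and 273 with anti-IgM, BAFF and both at 8 h, against 242 unstimulated. This estimate is uncertain for pieces close to the 215.5 bases taken as fragment length. The deposited interval of the 233-base piece, 544.7 to 652.0 FPKM, is narrow for 242 fragments and points to more. The spliced transcript of 7 exons had 4.55, 4.18 and 5.49 FPKM with anti-IgM, BAFF and both at 8 h, against 4.42 FPKM unstimulated. Its intervals overlapped in all 4 libraries, with limits of 3.16 and 6.72 FPKM over the stimulated ones and 3.41 and 5.42 FPKM unstimulated.

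At 30 h no single-exon piece was assembled, and the last exon of the 7-exon transcript was 2555, 2094 and 1888 bases long with anti-IgM, BAFF and both, against 162 bases unstimulated. This transcript had 11.3, 15.1 and 12.1 FPKM with anti-IgM, BAFF and both. A second transcript of 8 exons that ended in an exon farther downstream had 10.2 FPKM with anti-IgM and 27.3 FPKM with both, and none was assembled with BAFF. The spliced sum at 30 h was 4.86, 3.41 and 8.92 times that of the unstimulated library with anti-IgM, BAFF and both, and reads over exons gave ratios of 3.07, 2.82 and 3.52. By reads over exons the 8 h libraries stood at 1.41, 1.99 and 1.28 times the unstimulated one. By these values only the 30 h difference was past 2-fold by both measures. However, 242 of the 319 unstimulated reads came from the 233-base piece, whose count is uncertain as given above. With more reads in that piece all these exon ratios would be lower. Whether Tyms passed 2-fold at 30 h by reads over exons is thus not settled.

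**Figure D3:**
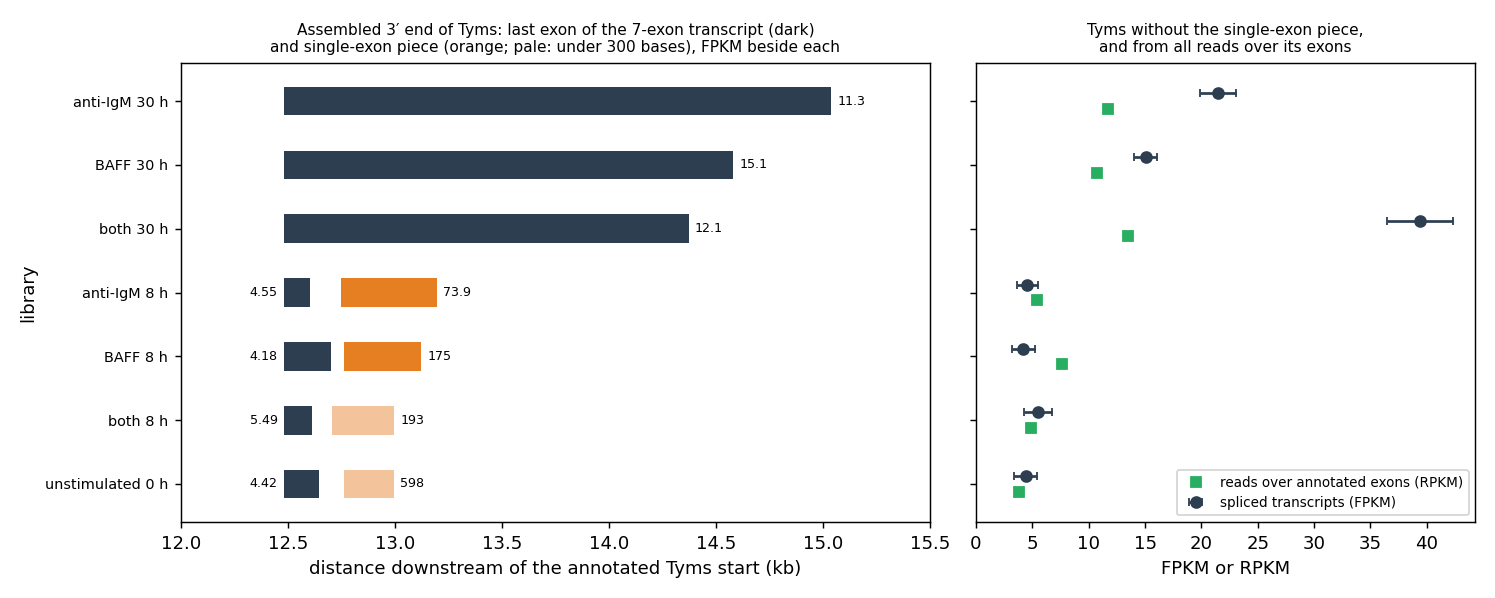
Left, the last exon of the 7-exon Tyms transcript (dark) and the single-exon piece (orange, pale where under 300 bases and left out of the sum) in each library, by distance from the annotated start in kb, with the FPKM of each; the 8-exon transcripts of anti-IgM and both at 30 h end farther downstream and are not drawn. Right, FPKM of the spliced transcripts with counting interval and RPKM from reads over annotated exons: the 30 h libraries stand apart by both, the 8 h libraries lie between 4.18 and 7.62.

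Of the 4 genes of deoxynucleoside salvage and removal, Tk2, Dck and Samhd1 were each counted lower in some libraries with anti-IgM, and Dguok in none. Tk2, the mitochondrial thymidine kinase, had 13.9, 31.8 and 13.9 FPKM with anti-IgM, with BAFF and with both at 8 h, and 17.6, 30.3 and 14.4 FPKM at 30 h, against 44.6 FPKM unstimulated. It was counted lower in the 4 libraries with anti-IgM, and the BAFF libraries lay between those and the unstimulated one.

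Dck, the kinase that salvages deoxycytidine in lymphocytes, had 8.10, 22.2 and 6.42 FPKM with anti-IgM, with BAFF and with both at 8 h, and 18.9, 28.7 and 17.4 FPKM at 30 h, against 21.01 FPKM unstimulated. It was lower with anti-IgM and with both at 8 h, and at 30 h it was counted higher than at 8 h under the same stimuli (log2 differences 1.13 and 1.31). The 28.7 FPKM with BAFF at 30 h came from 2 separate pieces, and reads over exons gave 16.9 RPKM there, against 19.3 RPKM unstimulated.

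Samhd1, the hydrolase that degrades deoxynucleoside triphosphates in resting cells, had 66.0, 115.4 and 57.4 FPKM with anti-IgM, with BAFF and with both at 8 h, and 90.8, 113.9 and 68.5 FPKM at 30 h, against 152.5 FPKM unstimulated. It was counted lower with anti-IgM at 8 h and with both at 8 h and 30 h. Samhd1 is also known from macrophages, whose summed marker FPKM was lower after culture as given above, while single markers moved either way. The part of macrophages in the Samhd1 values was not tested. Dguok, the mitochondrial deoxyguanosine kinase, stayed between 24.7 and 34.9 FPKM.

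The stimuli were then compared with each other, which keeps time in culture the same. At 8 h, anti-IgM had 5 members higher and 3 lower than BAFF, with 4.85% and 8.41% of all genes higher and lower. The higher ones were Aprt, Cad, Ctps, Nme2 and Dctpp1, all held, with log2 differences of 1.12 to 1.41. Reads over exons added Gart, Pfas and Nme1, and counted 8. The lower ones were Tk2 (-1.14) and Dck (-1.35), both held, and Tyms (-1.18), which was not. The median member was 0.66 higher with anti-IgM than with BAFF, where the median of all genes was -0.05.

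At 30 h, 0 of 32 members were counted higher or lower with anti-IgM than with BAFF, where 3.97% of all genes were higher and 4.64% lower. Reads over exons counted 0 as well. By FPKM, 22 of 32 differences were above 0, a share that was not counted over all genes. The median was 0.40 for the members and 0.002 for all genes. The largest was that of Rrm2, with 57.1 FPKM under anti-IgM and 30.7 FPKM under BAFF, a log2 difference of 0.87.

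Adding BAFF to anti-IgM changed few members. At 8 h, both stimuli had 0 members higher and 1 lower than anti-IgM alone, Tyms, with 4.24% and 1.88% of all genes. At 30 h they had 1 higher, Dtymk, and 0 lower, with 2.11% and 3.18%. Neither was held, and reads over exons counted 0 in both comparisons. Short of the limit at 8 h were Rrm2 (log2 difference 0.92, from 2 pieces under both stimuli) and Nme2, with 266.9 FPKM under both and 488.9 FPKM under anti-IgM alone (-0.87). The Nme2 transcript was put at 5604 fragments of 18.92 M mapped with both and 9001 of 28.61 M with anti-IgM. Reads over its annotated exons were put at 3213 and 7963. A larger part of the transcript thus lay outside those exons with both, and its level there is uncertain.

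Between 30 h and 8 h of the same stimulus, ribonucleotide reductase and Dut stood out. With anti-IgM, Rrm1, Rrm2, Dut and Dck were higher at 30 h than at 8 h, all held, and Impdh1 and Tyms lower, of which Impdh1 was held, with 7.93% of all genes higher and 5.3% lower. With BAFF, Rrm2 and Dut were higher, both held, and Tyms lower and not held, with 3.57% and 4.15% of all genes. Reads over exons also counted Rrm1 higher with BAFF, at 29.6 RPKM at 30 h and 11.8 RPKM at 8 h. With both, 6 members were higher (Nme2, Rrm1, Rrm2, Tyms, Dut and Dck, of which 5 were held) and 3 lower (Gart, Impdh1 and Ctps, of which 2 were held), with 5.65% and 6.9% of all genes. After rescaling each library by the median ratio, 1 of these 3 lower calls was left, Gart, the one that reads over exons had not held, and 59.6% of all genes counted were higher, in place of 45.0%. By FPKM, 7 members had their highest level of the 7 libraries with anti-IgM, 1 with BAFF and 8 with both at 8 h, and 4, 3 and 5 with the same stimuli at 30 h, against 4 unstimulated. By reads over exons these counts were 10, 2 and 7 at 8 h and 4, 3 and 4 at 30 h, against 2 unstimulated. The highest library was not counted over all genes, so these counts are not shown to be particular to the members.

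**Figure D4:**
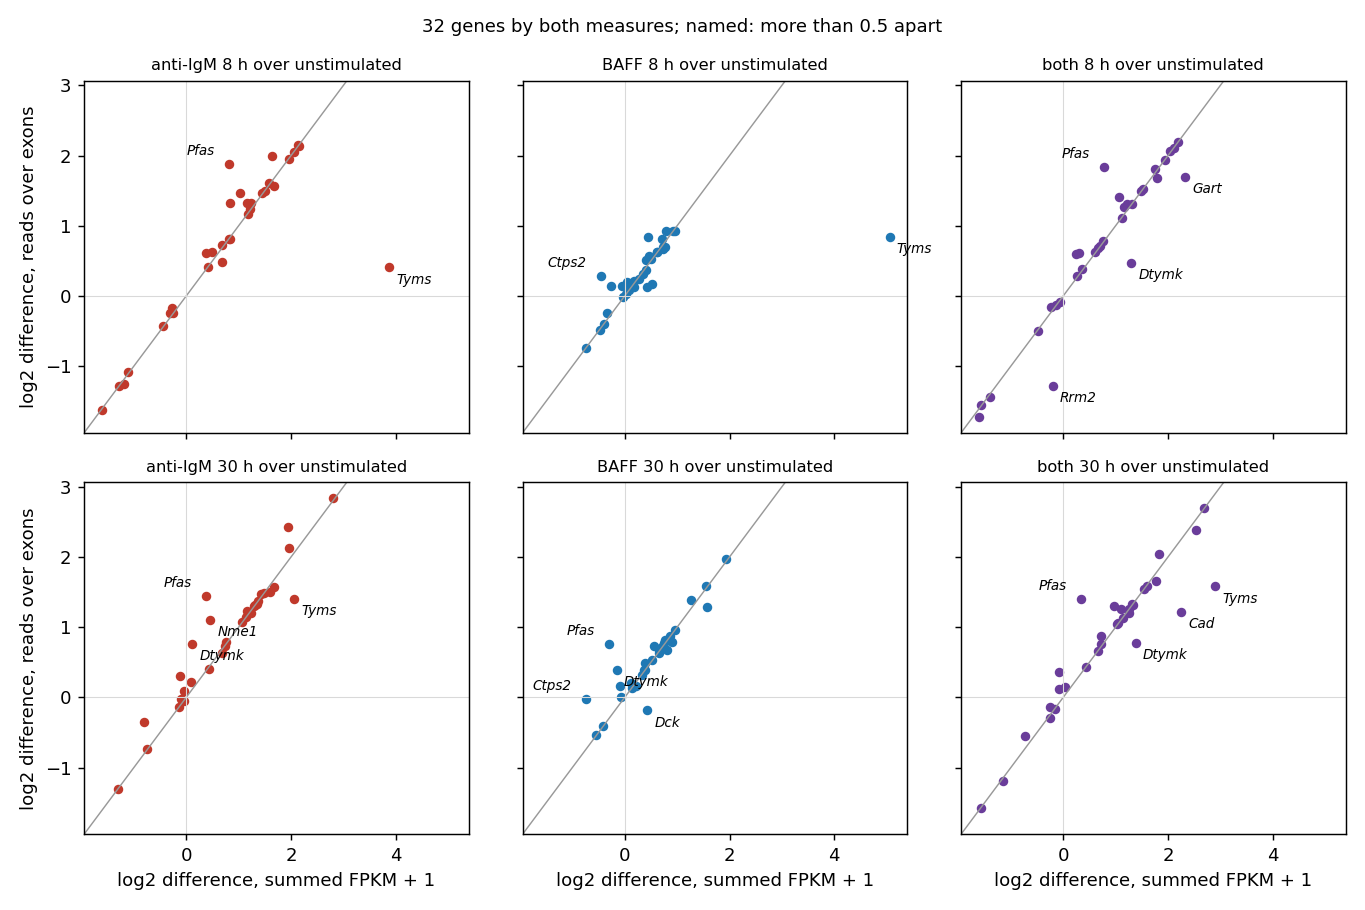
Log2 difference over the unstimulated library from summed FPKM plus 1 (x axes) against that from reads over annotated exons (y axes) for 32 members in the 6 stimulated libraries, with the line of equality and the names of those more than 0.5 apart. Most points lie on the line; 9 members leave it in at least 1 library, with Tyms farthest, at 5.06 against 0.84 with BAFF at 8 h.

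Of 44 further genes of nucleotide metabolism, 30 were assembled in all 7 libraries and 9 in none. Against the percentages of all genes given above, 4 of 32 compared were higher and 4 lower with anti-IgM at 8 h, 1 and 0 with BAFF, and 5 and 4 of 31 with both. At 30 h, 4 of 32 were higher and 2 lower with anti-IgM, 5 and 1 of 33 with BAFF, and 4 and 6 of 31 with both, each over the unstimulated library.

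Uck2, a uridine and cytidine kinase, was counted higher in all 6, with 24.8, 14.1 and 25.4 FPKM with anti-IgM, with BAFF and with both at 8 h, and 17.0, 9.30 and 16.5 FPKM at 30 h, against 3.82 FPKM unstimulated. Nudt1, which clears oxidized purine nucleotides, had 11.1, 6.16 and 10.6 FPKM at 8 h and 21.1, 9.61 and 21.4 FPKM at 30 h with anti-IgM, BAFF and both, against 3.20 FPKM unstimulated. Reads over exons of Nudt1 gave 4.53, 2.61 and 4.84 RPKM at 8 h and 8.29, 5.04 and 7.68 RPKM at 30 h in the same order, against 2.60 RPKM unstimulated. Its differences with anti-IgM and with both were held at 30 h, while those at 8 h and that with BAFF at 30 h were counted by FPKM alone.

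Early patterns were seen in 2 more genes. Slc29a1, an equilibrative nucleoside transporter, had 35.6, 12.7 and 34.2 FPKM with anti-IgM, with BAFF and with both at 8 h, and 18.3, 10.99 and 16.1 FPKM at 30 h, against 10.4 FPKM unstimulated. Ampd2, an AMP deaminase, had 21.6, 11.6 and 23.7 FPKM at 8 h and 13.4, 13.0 and 14.7 FPKM at 30 h in the same order, against 7.29 FPKM unstimulated. Adk, adenosine kinase, had 17.9, 8.01 and 17.4 FPKM at 8 h and 14.0, 8.82 and 14.8 FPKM at 30 h in the same order, against 6.01 FPKM unstimulated. It was counted higher at 30 h with anti-IgM and with both, and not at 8 h, where its log2 differences of 1.43 and 1.39 with these stimuli were larger but the intervals overlapped.

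Rrm2b, the small reductase subunit induced by p53, moved against Rrm2 at 30 h: 6.10, 13.4 and 6.56 FPKM with anti-IgM, BAFF and both, against 19.0 FPKM unstimulated. At 8 h it stood at 6.67, 11.4 and 6.69 FPKM in the same order. Cmpk2, the mitochondrial kinase known as an interferon-induced gene, had 3.62, 4.996 and 3.33 FPKM at 8 h and 3.22, 5.82 and 3.02 FPKM at 30 h with anti-IgM, BAFF and both, against 8.43 FPKM unstimulated. Rrm2b was counted lower in the 4 libraries with anti-IgM, and each was held, while Cmpk2 was counted lower in the same 4 and none was held. Ampd3, Nt5c2 and Uckl1 were also counted lower at least 2 times, which reads over exons held for Ampd3 and not for Nt5c2 or Uckl1. For Nt5c2 reads over exons gave 5.84 to 7.31 RPKM in the stimulated libraries, against 5.72 RPKM unstimulated, the opposite direction.

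Promoter windows of RefSeq, taken as the 250 bases before the annotated start (build GRCm38.p6, both strands searched), were matched for 31 of 33 members in 37 windows. The letters CACGTG, the E box bound by MYC and MAX among others, were in 7 of the 37 windows (18.9%), those of Paics, Atic, Impdh2, Nme1, Dtymk and Tyms, and in 6.0% of all 32851 windows. The letters CCAAT, the box bound by NF-Y, were in 9 member windows (24.3%) and in 33.8% of all. The E2F letters TTTCCCGC, TTTCGCGC, TTTGCCGC and TTTGGCGC, none of which overlaps the other motifs, were in 1 member window (2.7%), that of Ppat, and in 1.9% of all. A match is a run of letters and not a shown binding site.

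Windows of 4 members are printed 5′ to 3′ on the strand of the gene, ending at the base before the start, with matches in capitals. Atic, with both an E box and a CCAAT box, is shown as a gene counted higher with anti-IgM at 8 h and at 30 h alike. Rrm1, Rrm2 and Tyms are shown as 3 genes of deoxynucleotide synthesis counted higher at 30 h. The window of Dut, also higher at 30 h, held none of these motifs and is not printed. The printed windows are chr1:71556906-71557155 on the plus strand, chr7:102441445-102441694 on the plus strand, chr12:24708004-24708253 on the plus strand and chr5:30073626-30073875 on the minus strand. The capitals mark CACGTG in Atic, 7 bases before the start, and in Tyms, 61 bases before it. They mark CCAAT at 224 bases in Atic, at 91 and 45 bases in Rrm1, and at 50 bases in Rrm2.
Atic: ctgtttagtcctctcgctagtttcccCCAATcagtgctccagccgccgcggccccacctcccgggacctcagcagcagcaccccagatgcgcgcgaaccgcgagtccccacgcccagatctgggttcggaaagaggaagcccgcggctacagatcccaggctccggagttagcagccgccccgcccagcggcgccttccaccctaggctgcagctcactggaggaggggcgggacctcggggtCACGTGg
Rrm1: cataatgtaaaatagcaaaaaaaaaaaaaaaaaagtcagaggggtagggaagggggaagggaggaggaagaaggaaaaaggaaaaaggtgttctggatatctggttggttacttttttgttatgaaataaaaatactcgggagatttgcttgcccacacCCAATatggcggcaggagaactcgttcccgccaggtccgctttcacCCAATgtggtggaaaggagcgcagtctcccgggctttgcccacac
Rrm2: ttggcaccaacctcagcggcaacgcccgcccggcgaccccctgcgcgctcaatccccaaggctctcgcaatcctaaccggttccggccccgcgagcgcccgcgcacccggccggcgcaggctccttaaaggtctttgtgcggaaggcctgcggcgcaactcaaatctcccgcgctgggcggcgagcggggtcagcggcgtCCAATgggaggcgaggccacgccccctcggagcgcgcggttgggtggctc
Tyms: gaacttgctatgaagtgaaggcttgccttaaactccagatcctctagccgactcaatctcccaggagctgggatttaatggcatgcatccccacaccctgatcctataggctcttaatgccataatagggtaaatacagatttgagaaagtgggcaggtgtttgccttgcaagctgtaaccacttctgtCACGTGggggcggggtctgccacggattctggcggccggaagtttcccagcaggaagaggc
The CCAAT boxes of Rrm1 and Rrm2 are the nearest matches to their starts. The window of Tyms has no CCAAT, and those of Rrm1 and Rrm2 have no CACGTG. By reads over exons the levels of the 3 genes were highest at 30 h. Any part of these letters in the levels was not tested.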

How the data were processed

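Poly(A)-primed RNA of 7 B cell libraries was sequenced, 1 library per condition. Per the submitters' processing notes, CASAVA 1.8.2, TopHat2 2.0.5, Bowtie2 2.0.0.7 and Cufflinks 2.0.2 were used with build mm10. The authors deposited, for each library, assembled transcripts with FPKM and its lower and upper bound, taken to span 2 standard deviations of counting error on each side; strand was taken as deposited. A deposited merged set without expression values gave gene names.

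Transcripts of at least 300 bases took the gene name of the same-strand exons they overlapped most, annotated exons first, since read-through transcripts otherwise gave Cad the transcripts of its neighbour Atraid and Impdh2 those of Qrich1. FPKM was summed per gene, and intervals were combined in quadrature. Shorter pieces held 66.6% to 74.4% of a library's summed FPKM. Mapped fragments were recovered from FPKM, interval and coverage. The fragment length recovered with them was 215.5 bases in all 7 libraries, so it was not shown to be a measured length. Log2 differences used a pseudocount of 1, and 13 comparisons were made without tests. The members and lists were chosen with earlier results of these data known. All members were named; other genes were named when counted in 2 or more of the 6 comparisons with the unstimulated library, except 1 that is not reported here. Identity of paralogues was taken from GENCODE M21 transcripts. The calling rule was tried on simulated libraries with counting error only, drawn from the unstimulated levels. These held no differences in assembly or between cultures, so errors from those were not measured. Scripts ran under Python 3.11.15 with pandas 2.3.3 and numpy 2.4.6, and figures under matplotlib 3.10.9.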

Additional observations from a re-analysis of the deposited data

Results flagged for a closer look

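Rrm2 differed from the unstimulated library in opposite directions at 2 times of the same stimulus: with anti-IgM its log2 difference was -1.12 at 8 h and 2.81 at 30 h. The difference between the times was not tested, since each was 1 library. Tyms differed between 30 h and 8 h in opposite directions under different stimuli by its summed FPKM: -1.82 with anti-IgM, -3.49 with BAFF and 2.64 with both. This difference was not tested either, and the single-exon piece of the last exon entered the sum at 8 h with anti-IgM and BAFF but not with both. By reads over exons the Tyms ratio of 30 h to 8 h was 2.18 with anti-IgM, 1.41 with BAFF and 2.75 with both, above 1 under all 3.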

How the results depend on the processing

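No paired analysis was possible because each condition was 1 library. Of 106 member calls over the 13 comparisons, all 106 were kept with a pseudocount of 0.1, with a minimum of 5 FPKM, without intervals and with missing members set to 0. Calls kept were 99 with transcripts of any length, 99 after median ratio scaling and 95 with reads over exons. Of the 2 alternatives added after seeing the data, spliced transcripts alone kept 100 and naming by any merged exon 101.

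Counts of members that moved by over 1.5 times, against the values in the report, were few and small. With a pseudocount of 0.1, BAFF at 8 h had 2 higher over unstimulated and both had 1 higher over anti-IgM at 8 h. With transcripts of any length, members over unstimulated were 0 higher and 1 lower with BAFF at 8 h, 2 lower with anti-IgM at 30 h and 1 lower with BAFF at 30 h, and both over anti-IgM at 8 h had 1 higher and 0 lower. With reads over exons, BAFF at 8 h had 0 higher over unstimulated, anti-IgM had 8 higher over BAFF at 8 h, both had 0 lower at 8 h and 0 higher at 30 h over anti-IgM, and 30 h over 8 h had 1 lower with anti-IgM and 0 with BAFF. With median ratio scaling, 30 h over 8 h of both had 1 lower. With spliced transcripts alone, both over anti-IgM at 8 h had 0 lower, and 30 h over 8 h had 1 lower with anti-IgM and 0 lower with BAFF. With naming by any merged exon, both over anti-IgM at 30 h had 2 higher.

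Tyms reversed against the unstimulated library with transcripts of any length, at -2.93 with anti-IgM and -1.75 with BAFF at 8 h and -4.75, -5.23 and -3.90 with anti-IgM, BAFF and both at 30 h, since the 233-base piece of 598.3 FPKM then entered the unstimulated sum. With both at 8 h, whose own piece of 289 bases entered too, it moved to -1.59, a lower call, in place of 0.26. With spliced transcripts alone its difference with BAFF at 8 h was -0.07. Intervals cover counting error only, so variation between animals or cultures is not measured, and FPKM from separately assembled pieces of a gene can add up to more than its reads over exons show.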
